A study of Mus musculus with 12 samples.

Results

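The mouse genes whose symbol is Psm followed by a letter from a to g and a number encode the subunits of the proteasome, its regulators and its assembly chaperones. Of the 51826 entries of the deposited table, 48 had such a symbol and were taken as members. They were 8 genes of the 20S alpha ring, 7 standard genes of the 20S beta ring, 4 inducible or thymic beta genes, 6 ATPases and 11 non-ATPase subunits of the 19S particle, 3 chaperones of 19S assembly, 4 activators, 1 inhibitor and 4 chaperones of 20S assembly. They were read in RNA-Seq libraries from the hearts of CUG960 mice, a model of the heart disease of myotonic dystrophy type 1. CUG960 +dox mice had the genotype TREDT960I(H)/MHCrtTA(hemi). TREDT960I is a tetracycline-responsive transgene that gives RNA with 960 interrupted CUG repeats within human DMPK exons, and MHCrtTA expresses the reverse tetracycline transactivator from the α myosin heavy chain promoter, so the repeat RNA was driven in cardiomyocytes while RNA was taken from whole chambers. MHCrtTA +dox controls had the genotype MHCrtTA(hemi) and no repeat transgene. All 6 mice were FvB females, were fed 2 g/kg dox from postnatal day 1 and were 10 weeks old. Atria and ventricles of the control mice V327, V333 and V334 and of the CUG960 mice V119, V120 and V123 gave 12 libraries, 3 in each of 4 groups.

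The 26S proteasome degrades proteins that carry chains of ubiquitin. The 20S core is a barrel of stacked alpha and beta rings in which 3 beta subunits, Psmb5, Psmb6 and Psmb7, cut peptide bonds, and the 19S particle on its end recognizes ubiquitin, removes it and unfolds the substrate with a ring of ATPases. Interferon induces the alternative catalytic subunits Psmb8, Psmb9 and Psmb10, which replace the standard ones in the immunoproteasome, and the activators of the Psme group open the core without ubiquitin. In heart muscle the proteasome turns over contractile proteins that ligases such as Fbxo32 and Trim63 mark, and the transcription factor Nfe2l1 is known to raise all subunit genes together when proteasome activity falls.

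Libraries had between 116127966 and 160676189 counts. In atria the controls were the deeper libraries and in ventricles the CUG960 mice were, without overlap of genotypes. Members took 0.343% to 0.352% of all counts in control atria, 0.372% to 0.406% in CUG960 atria, 0.345% to 0.377% in control ventricles and 0.383% to 0.414% in CUG960 ventricles. Levels below are CPM (counts scaled to library size) after TMM scaling over the 12 libraries, and log2 fold changes, SEs and adjusted P values are from edgeR's quasi-likelihood test over all genes of a comparison. On the CPM scale the summed level of the 48 members was 3070, 2998 and 3086 in control atria (V327, V333, V334), 3419, 3436 and 3181 in CUG960 atria (V119, V120, V123), 4157, 4628 and 4095 in control ventricles, and 4230, 4585 and 4315 in CUG960 ventricles. Genotypes did not overlap in atria and overlapped in ventricles, where the control V333 lay above the other 2 controls. In bulk RNA, fewer cells that express a gene and less RNA of that gene per cell cannot be told apart. Marker genes fitted the labeled tissues: the 6 markers of atrial cardiomyocytes were all higher in atria and the 5 of ventricular cardiomyocytes all higher in ventricles in both genotypes (adjusted P under 0.05).

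**Figure D1:**
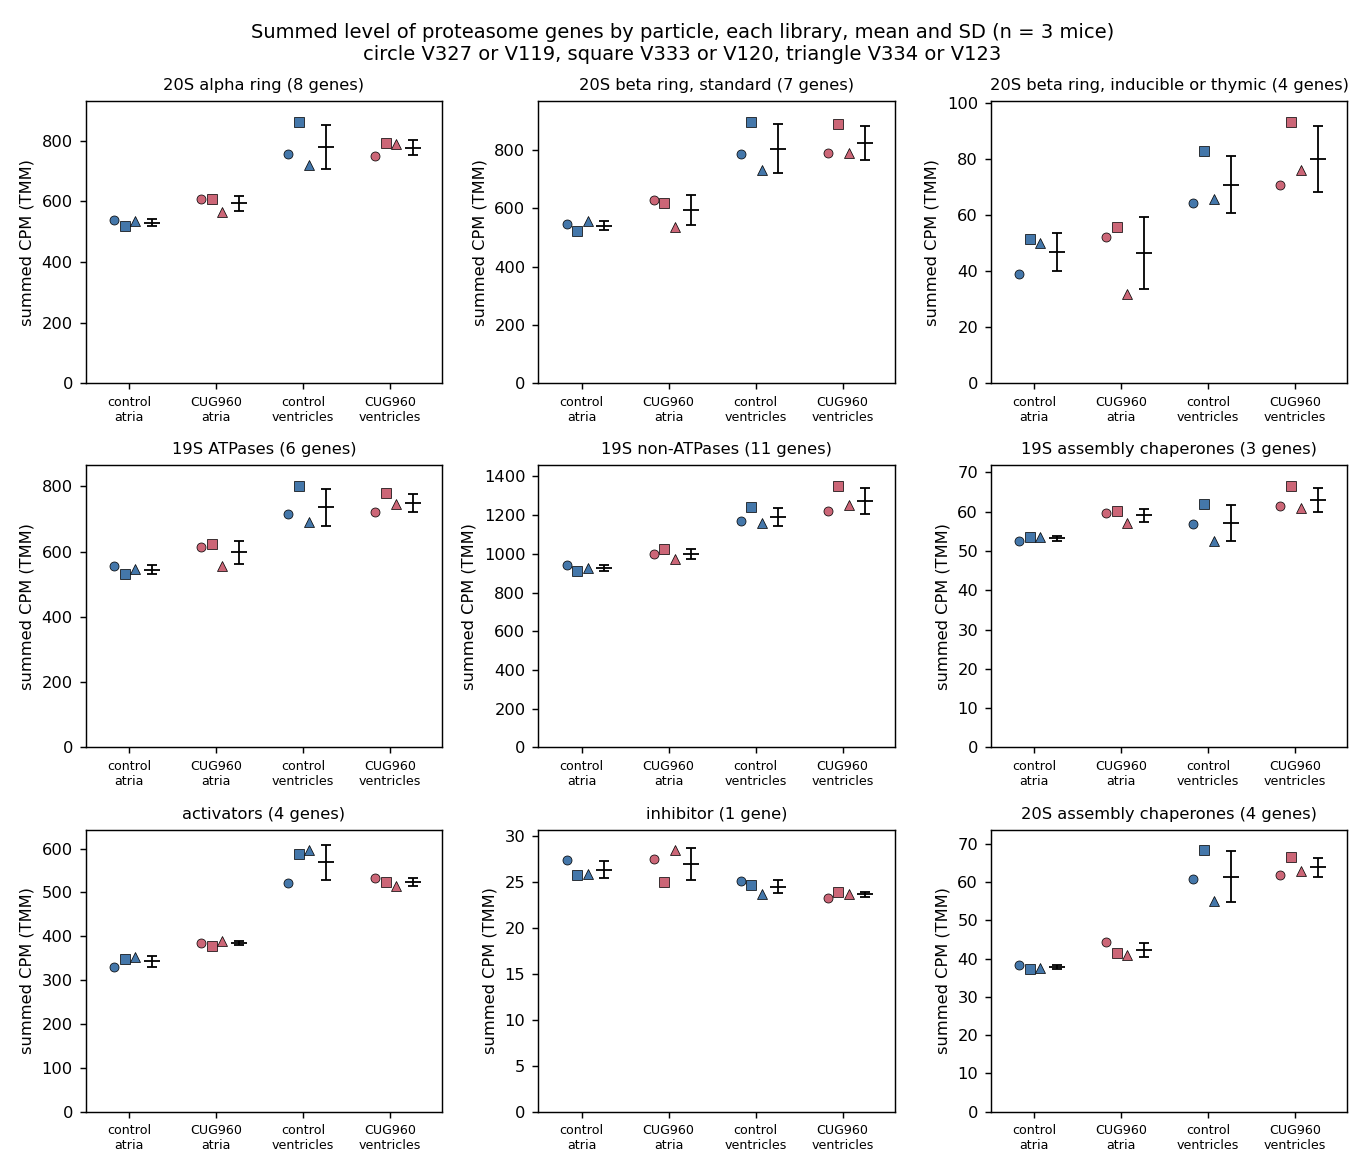
Summed CPM (y axis, TMM scaled) of the members of each particle in the 12 libraries, with the mean and SD of 3 mice. Atrial points lie below ventricular points in the 20S rings, the 19S ATPases and non-ATPases, the activators and the 20S assembly chaperones, and the control ventricle of V333 (square) is the highest control in most of these panels.

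Members differed in level over a wide range. Per kilobase of exon, over the 12 libraries, Psma6 of the alpha ring was highest at a mean of 80.7 CPM per kilobase, followed by the catalytic Psmb5 at 78.2, the 19S ATPase Psmc3 at 71.8 and the catalytic Psmb6 at 69.4. The standard beta genes had a median of 52.7 CPM per kilobase, the 19S ATPases 44.9, the alpha genes 36.3, the activators 28.1 and the 19S non-ATPases 24.1. Assembly chaperones were lower, at a median of 9.85 for those of the 20S core and 3.28 for those of the 19S particle, as was the inhibitor Psmf1 at 3.93. Among the inducible genes Psmb10 stood at 20.1, Psmb8 at 5.15 and Psmb9 at 2.56. Exon lengths are unions over annotated transcripts, so a gene with long rare transcripts is placed too low on this scale.

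The 2 tissue-restricted members were at or near the floor. Psma8, the alpha subunit of the testis, had 26, 49 and 57 counts in control atria, 94, 30 and 85 in control ventricles, 65, 45 and 27 in CUG960 atria and 102, 98 and 23 in CUG960 ventricles, against a mean of 0.175 CPM per kilobase. Psmb11, the catalytic subunit of thymic epithelium, had 2 counts in the atrium and 3 in the ventricle of V327, 1 in the atrium of V123 and 0 in the other 9 libraries, and did not pass the filter on low counts. The other 46 members had at least 360 counts in every library, so 47 members were tested in each comparison.

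The genes lie on many chromosomes, with 8 on chromosome 11 and 6 each on chromosomes 2 and 14 (GRCm38). Of the inducible pair within the major histocompatibility region of chromosome 17, Psmb9 (chr17:34181987-34187764, minus strand) and Psmb8 (chr17:34197721-34201454, plus strand) are separated by 9956 bases. Psme1 and Psme2, which form the ring of the interferon-inducible activator PA28, are separated by 5911 bases on chromosome 14, and Psmb5 and Psmb11 by 3410 bases. Promoters were searched because subunit genes are known to be raised as a set. RefSeq promoters (250 bases before to 50 after the start, GRCm38.p6) matched 40 of the 48 members with 43 sequences. TGACNNNGC, the core of the antioxidant response element that Nfe2l1 and Nfe2l2 bind, was found on either strand in 6 of the 43 (14%) and in 12.4% of all 32851 promoters. GAAA followed after any 2 bases by a second GAAA, the core of the interferon-stimulated response element, was found in 5 of the 43 (11.6%) and in 3.44% of all promoters, and the CCAAT box in 32.6% and 37.4%. The windows below are of members whose values are given by library or as ratios further on, in the direction of the motif, with the motif in capitals.
Psmb5, antioxidant core, chr14:54618023-54618052, minus strand, 43 bases before the start: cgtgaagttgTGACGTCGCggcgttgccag
Psmb6, antioxidant core, chr11:70525338-70525367, plus strand, 5 bases before the start: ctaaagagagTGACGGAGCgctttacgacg
Psme4, antioxidant core, chr11:30771758-30771787, minus strand, 3 bases before the start: ggctcttctggTGACGCTGCagccgcagcg
Psmd4, interferon core, chr3:95042675-95042704, plus strand, 75 bases before the start: aggcgccacaGAAATGGAAAggttggttat
Psmg4, interferon core, chr13:34162969-34162998, plus strand, 20 bases after the start: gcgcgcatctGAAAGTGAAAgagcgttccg
Psme1, interferon core, chr14:55578493-55578522, minus strand, 14 bases after the start: agcgggaaggGAAAGCGAAAgcacagctcg
Neither core was found in the promoters of Psmb8, Psmb9 and Psmb10. A match is a description of letters and not of a bound site.

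Near-identical copies make some counts uncertain, because RSEM divides reads that match several loci. Psmb5 has a processed pseudogene, Gm3375, which is 98.9% identical over 793 bases and held 41.9 to 51.9 counts for each 100 of Psmb5 across the libraries. Copies of Psmd11 and Psme2 held 5.72% and 4.93% of the counts of their parent gene, and other copies under 0.4%. Adding the copies to their parent genes left the number of members called in each comparison as it was.

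In atria, CUG960 +dox mice had slightly more transcript of most members than MHCrtTA +dox controls. With 17650 genes tested, 5 of 47 members rose and 0 fell at an adjusted P under 0.05, where 14.6% of all genes were called, 7.95% as higher and 6.62% as lower. The share called among members was therefore no larger than that of all genes, but the directions were unequal: 44 of 47 log2 fold changes were above 0, compared with 48.6% of all genes. The median log2 fold change was 0.13 for members and -0.01 for all genes. All changes were small, with 0 members at a fold change of 1.5 (5.49% of all genes), and 13 members had an unadjusted P under 0.05 (30.2% of all genes). Groups did not overlap for 20 members, each with CUG960 higher, where 18.5% of all genes did so in that direction and 17.2% in the other.

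The 5 that rose were Psmd4, Psmd13, Psmc1, Psma4 and Psmg1. Psmd4, the ubiquitin receptor Rpn10 of the 19S particle, had 77.2, 72.3 and 76.5 CPM in control atria and 95.3, 95.9 and 88.0 in CUG960 atria. Every CUG960 atrium was above every control, and the log2 fold change was 0.30 ± 0.06 (SE, adjusted P = 0.015), a 1.23-fold rise. Psmd13, the 19S lid subunit Rpn9, had 72.6, 68.5 and 73.6 CPM in control atria and 86.8, 84.5 and 79.6 in CUG960 atria. Here too the groups were apart, with a log2 fold change of 0.22 ± 0.06 (adjusted P = 0.043).

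Psmc1, the ATPase Rpt2, had 88.3, 82.4 and 85.6 CPM in control atria and 107.6, 105.7 and 98.7 in CUG960 atria, without overlap, and a log2 fold change of 0.28 ± 0.06 (adjusted P = 0.018). Psma4, an alpha ring subunit, had 84.4, 82.6 and 84.7 CPM in controls and 100.5, 101.7 and 94.7 in CUG960 mice. These values were apart by more than the range within either group, with a log2 fold change of 0.24 ± 0.06 (adjusted P = 0.026). Psmg1, a chaperone that pairs with Psmg2 to build the alpha ring, had 10.6, 10.7 and 10.8 CPM in controls and 14.3, 12.9 and 13.8 in CUG960 mice. It had the largest rise of the 47 members, 0.35 ± 0.07 on the log2 scale (adjusted P = 0.016), a 1.28-fold rise, while Psmg2 had a log2 fold change of 0.04 ± 0.07 (adjusted P = 0.72).

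**Figure D2:**
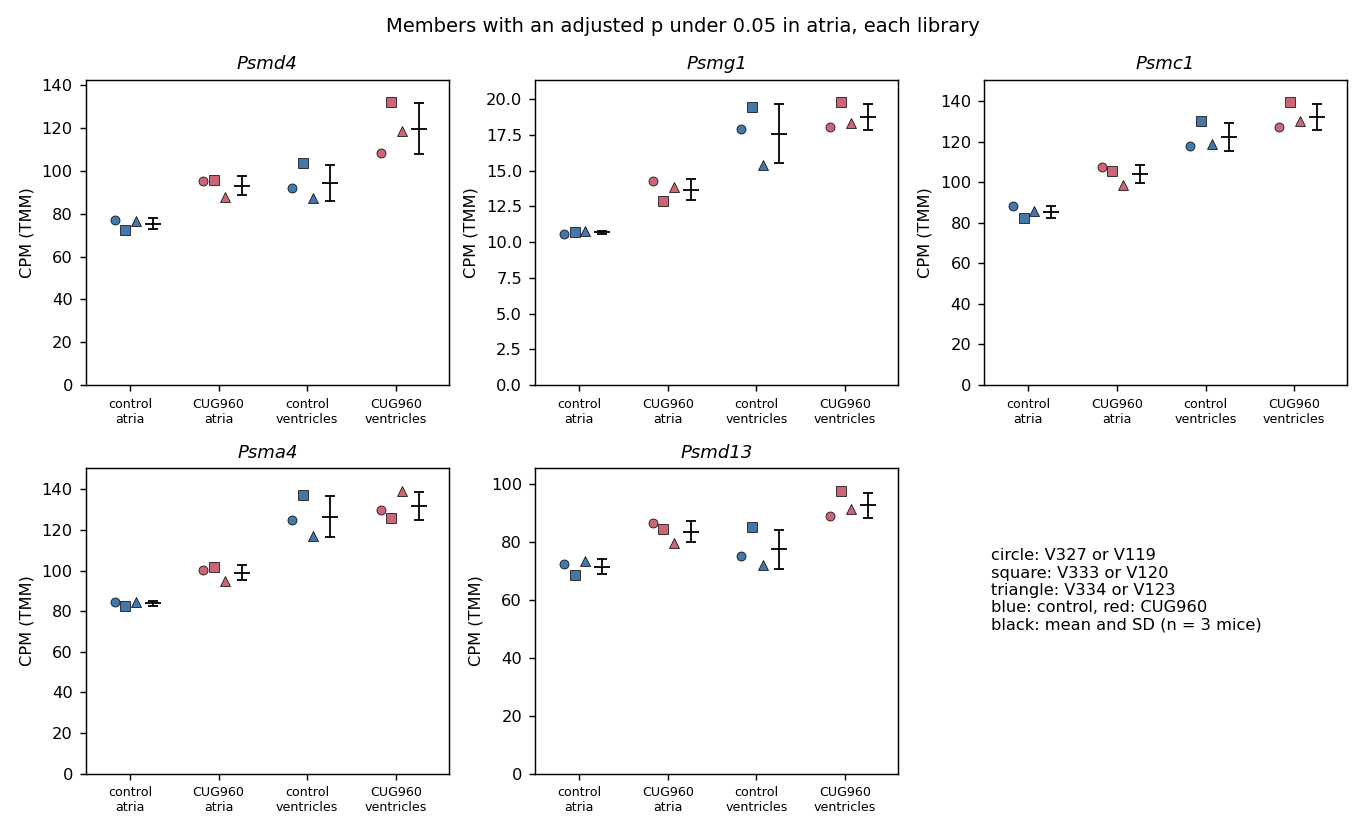
CPM (y axis) of the 5 members with an adjusted P under 0.05 in atria, in each of the 12 libraries, with the mean and SD of 3 mice. In atria each CUG960 point lies above each control point, and in ventricles this holds for Psmd4 and Psmd13.

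The 5 members called in atria belonged to 4 of the 9 groups of genes. With TMM factors and all mice kept, edgeR called 0 among the standard and inducible beta genes, the 19S assembly chaperones, the activators and the inhibitor. Of these groups, DESeq2 called Psmd10, as did edgeR with total counts and no factors. Without V123 edgeR called Psmb4, Psmb6, Psmb7, Psmd10 and Psme1 of them. All 8 alpha genes had a log2 fold change above 0 (median 0.17) with 1 called, all 7 standard beta genes did (median 0.13) with 0 called, and 5 of 6 ATPases (median 0.12) and 10 of 11 non-ATPases (median 0.10) did with 1 and 2 called. The summed level of the alpha genes was 538, 518 and 535 CPM in control atria and 607, 608 and 565 in CUG960 atria, a ratio of means of 1.12. Standard beta genes had a ratio of 1.10 and inducible ones 0.994. The exceptions in direction were Psmc6, Psmd11 and Psmb10, with log2 fold changes of -0.01 ± 0.06, -0.07 ± 0.06 and -0.07 ± 0.15, none of which passed the test (adjusted P between 0.46 and 0.91).

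The number of calls changed when 1 mouse was left out, while the folds of the 5 members stayed close to their values. Without the control V333 or the CUG960 mouse V119, 0 members passed the test (6.86% and 7.40% of all genes), and without V334 or V120 1 did (7.89% and 8.21%). Without V327 3 members passed (10.6% of all genes) and without V123 13 did (14.3%), all higher. The log2 fold change over these fits was 0.27 to 0.34 for Psmd4, 0.32 to 0.39 for Psmg1, 0.26 to 0.31 for Psmc1, 0.22 to 0.26 for Psma4 and 0.19 to 0.25 for Psmd13. V123 had the lowest summed level of the 3 CUG960 atria. DESeq2 called 9 of 48 members, all higher, and 12.2% of 28064 genes. It kept genes with low counts that edgeR's filter left out (17650 tested), so its share of all genes is not on the same base as edgeR's. Psmd13 was not called in atria with all 12 libraries in 1 fit (adjusted P = 0.053) or with no filter on low counts (adjusted P = 0.058), both with edgeR.

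**Figure D3:**
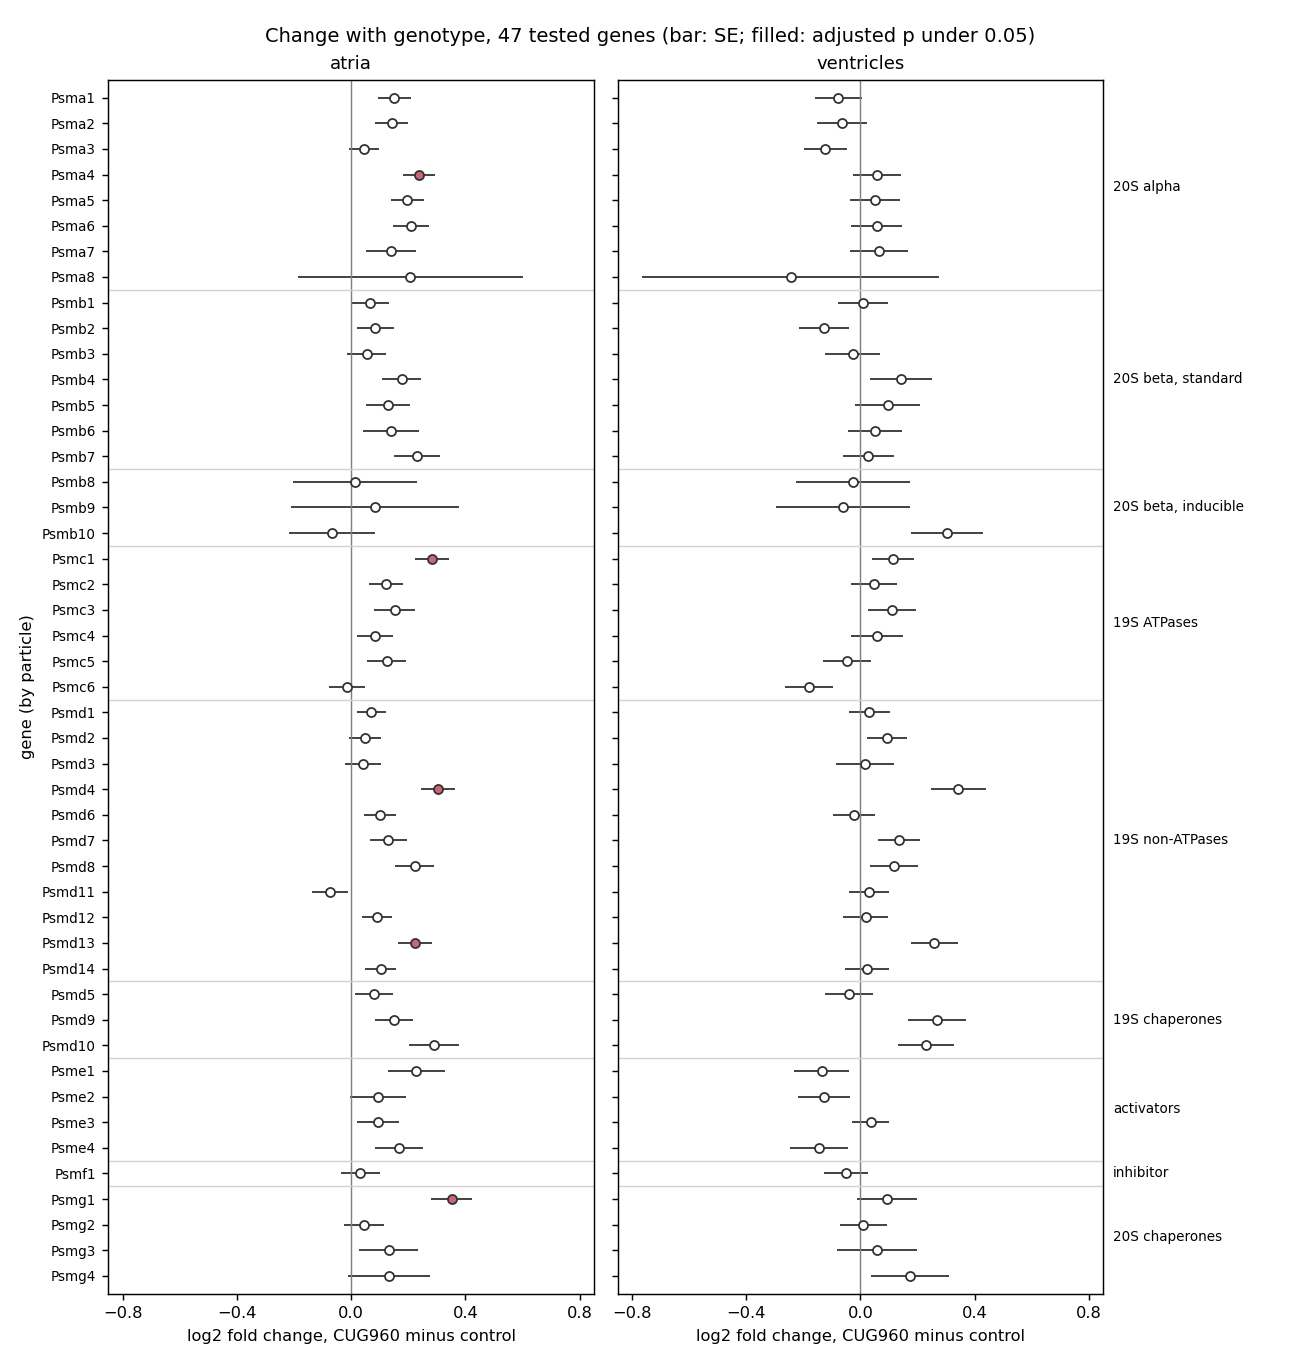
Log2 fold change of CUG960 over control (x axis, bar: SE) of the 47 tested members in atria and in ventricles, by particle, with filled points at an adjusted P under 0.05. In atria 44 of 47 points lie right of 0 and 5 are filled, and in ventricles 31 lie right of 0 and none is filled.

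In ventricles no member passed the test with edgeR's quasi-likelihood method, where 9.94% of 16909 genes were called. At an unadjusted P under 0.05 there were 5 members (25.7% of all genes). DESeq2 called 1, Psmd4 (9.15% of 27223 genes, with genes of low counts kept). The median log2 fold change was 0.03 for members and -0.01 for all genes, and 31 of 47 were above 0 (48.6% of all genes). This did not hold without V334 (median -0.00025, 22 above 0) or without V120 (median -0.0019, 23 above 0), and without V333 the median was 0.12 with 37 above 0. Psmd4 came nearest, with 92.2, 103.8 and 87.4 CPM in control ventricles and 108.3, 132.0 and 118.8 in CUG960 ventricles. The groups did not overlap, and the log2 fold change was 0.34 ± 0.10 (adjusted P = 0.054), about as large as in atria. Psmd4 was called when genes with low counts were kept, when at least 10 counts were asked of every library, when all 12 libraries were fitted together, or when V333 was left out. With total counts and no factors 6 members were called, all higher, where 13.1% of all genes were called, and the median of all genes moved to 0.10. Psmd13 had 75.4, 85.1 and 72.3 CPM in controls and 89.1, 97.7 and 91.4 in CUG960 mice, again without overlap, and a log2 fold change of 0.26 ± 0.08 (adjusted P = 0.082). It was called with all 12 libraries in 1 fit, without V333 and with total counts.

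The other 3 members that rose in atria had log2 fold changes of 0.11 ± 0.07 (Psmc1), 0.06 ± 0.08 (Psma4) and 0.09 ± 0.10 (Psmg1) in ventricles, with adjusted P values of 0.38, 0.71 and 0.63. Groups did not overlap for 6 members with CUG960 higher (16.2% of all genes) and for 2 with CUG960 lower (15% of all genes). The 2 lower ones, named after their values were seen, were in the alpha ring and the 19S ATPases: Psma3 had a log2 fold change of -0.12 ± 0.08 and Psmc6 of -0.18 ± 0.08 (adjusted P = 0.35 and 0.21). Of the chaperones of 19S assembly, Psmd9 had a log2 fold change of 0.27 ± 0.10 and Psmd10 (gankyrin) of 0.23 ± 0.10, but neither passed (adjusted P = 0.13 and 0.17). Psmd5 of the same group had -0.04 ± 0.08 (adjusted P = 0.81).

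Whether the change differed between chambers was tested as the interaction of chamber and genotype over the 12 libraries. No member passed with edgeR's quasi-likelihood test or with DESeq2, where edgeR called 1.38% of 18327 genes, and 3 members had an unadjusted P under 0.05 (12.3% of all genes). In 39 of 47 members (49.6% of all genes) the log2 fold change was larger in atria, with a median difference of 0.08, compared with -0.0024 over all genes. With total counts and no factors it was larger in 27 of 47, with a median of 0.01 for members and -0.07 for all genes. The median for members was 0.0044 when V333 was left out. The members with the smallest interaction P values were Psme1, Psma1, Psme4, Psmg1 and Psma2.

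Psme1, the alpha subunit of PA28, had 78.2, 74.4 and 72.7 CPM in control atria and 101.8, 85.3 and 76.8 in CUG960 atria. In ventricles it had 127.5, 149.1 and 115.6 CPM in controls and 122.2, 120.7 and 113.6 in CUG960 mice. The CUG960 range overlapped that of controls in both chambers, and the interaction was 0.37 ± 0.15 (adjusted P = 0.33). Psme4, the nuclear activator PA200, had 160.7, 179.6 and 187.2 CPM in control atria and 183.6, 194.3 and 215.1 in CUG960 atria, and 267, 303 and 353 in control ventricles and 284, 273 and 277 in CUG960 ventricles. Its groups overlapped as well, with an interaction of 0.32 ± 0.14 (adjusted P = 0.38).

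Psma1 had 82.5, 78.1 and 80.6 CPM in control atria and 87.5, 93.8 and 86.6 in CUG960 atria, which did not overlap, and 119.5, 134.3 and 112.8 in control ventricles and 113.2, 114.6 and 119.2 in CUG960 ventricles, which did. Its interaction was 0.23 ± 0.10 (adjusted P = 0.35). Psma2 had 91.6, 85.2 and 91.6 CPM in control atria, 101.0, 99.7 and 95.4 in CUG960 atria, 120.8, 138.3 and 111.5 in control ventricles and 115.7, 119.2 and 118.9 in CUG960 ventricles. In these 2 alpha genes and in Psme1, V333 had the highest level of the control ventricles. The interactions of Psma2 and Psmg1 were 0.21 ± 0.10 and 0.26 ± 0.12 (adjusted P = 0.45 and 0.42).

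The larger contrast was between chambers. In control hearts, 39 of 47 members were lower in atria than in ventricles and 0 were higher, where 55.7% of 17451 genes were called, 28.3% as higher and 27.5% as lower in atria. The median log2 difference, atria minus ventricles, was -0.47 for members and 0.03 for all genes, and 16 members passed a fold change of 1.5 (34.9% of all genes). Atria and ventricles did not overlap for 40 members with atria lower (30.9% of all genes) and for 1, Psmf1, with atria higher (33.7%).

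This direction depends on how libraries are scaled. Mitochondrial transcripts took 11.8% to 12.2% of counts in control atria and 19.6% to 20.5% in control ventricles, and TMM factors were 1.12 to 1.16 in control atria and 0.815 to 0.857 in control ventricles. With total counts and no factors, the median of all genes moved to 0.49, the median of members was -0.02, and 8 members were called as higher and 10 as lower, where 71.1% of all genes were called. Relative to the median of all genes, members stood at -0.51 with TMM and at -0.50 with total counts. Members are thus low in atria compared with the typical gene, and their share of all counts was alike in both control chambers. Markers of cell types moved with the chamber as well: the 7 cardiomyocyte markers summed to 41762, 40801 and 42133 CPM in control atria and 53596, 55962 and 52809 in control ventricles (0 higher, 4 lower, Myh6 the most abundant). The 8 fibroblast markers summed to 2245, 2584 and 2626 CPM against 1342, 1354 and 1556 (7 higher, Dcn the most abundant), and the 12 leukocyte markers to 304, 260 and 607 against 133, 114 and 150 (9 higher, Lyz2 the most abundant). No marker of these lists was at 0 in all libraries, and their part in the difference was not tested.

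Nearly all parts of the complex shared the difference on the TMM scale. All 8 alpha genes, all 7 standard beta genes, all 6 ATPases, all 4 activators and 10 of 11 non-ATPases were called as lower in control atria. Medians were -0.60 for alpha, -0.58 for standard beta, -0.48 for the ATPases, -0.36 for the non-ATPases and -0.70 for the activators. The 19S assembly chaperones (0 of 3 called, median -0.20), the inhibitor Psmf1 and the non-ATPase Psmd13 did not pass the test, nor did Psmb8 and Psmb9.

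The 5 members with the largest difference in control hearts were Psma8, Psmg4, Psmb10, Psmb7 and Psmg2. Psmg4, which pairs with Psmg3 as a chaperone of 20S assembly, had 2.99, 2.40 and 2.97 CPM in control atria and 5.39, 7.16 and 5.55 in control ventricles. The lowest ventricle was well above the highest atrium, and the log2 difference was -1.12 ± 0.15 (adjusted P = 0.00038), while that of Psmg3 was -0.10 ± 0.13 (adjusted P = 0.54). Psmg2 had 17.0, 16.0 and 15.7 CPM in control atria and 29.0, 31.5 and 26.9 in control ventricles. Its ranges were far apart, with a log2 difference of -0.85 ± 0.08 (adjusted P = 4.89e-05). Psmg4, Psmg2, Psmb10 and Psmb7 were also called as lower with total counts and no factors. Psma8 had a difference of -1.22 ± 0.45 (adjusted P = 0.047) at the counts given above, which overlapped between chambers, and its adjusted P was 0.055 with the mouse as a block.

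Psmb7 is the standard trypsin-like subunit. It had 96.8, 94.3 and 100.6 CPM in control atria and 171.9, 204.0 and 168.8 in control ventricles. The chambers were far apart, and the log2 difference was -0.91 ± 0.08 (adjusted P = 4.18e-05). Psmb10, which replaces Psmb7 in the immunoproteasome, had 19.2, 23.1 and 22.1 CPM in control atria and 42.7, 47.6 and 37.2 in control ventricles. This was a log2 difference of -0.99 ± 0.11 (adjusted P = 0.00011), so that both members of the pair had lower levels in atria by similar folds.

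Among the regulators, Psme3, the nuclear activator PA28 gamma, had 52.7, 54.0 and 53.5 CPM in control atria and 71.2, 69.0 and 72.8 in control ventricles, with a log2 difference of -0.42 ± 0.06. Psme2, the beta subunit of PA28, had 38.0, 39.4 and 39.9 CPM in control atria and 56.1, 66.6 and 54.8 in control ventricles. Both were apart between chambers, and neither passed the test for genotype (adjusted P between 0.42 and 0.78). The inhibitor Psmf1 (PI31) had 27.3, 25.8 and 25.9 CPM in control atria and 25.1, 24.6 and 23.7 in control ventricles, the reverse order, with a log2 difference of 0.10 ± 0.07 (adjusted P = 0.22). In CUG960 mice Psmf1 had 27.4, 24.9 and 28.4 CPM in atria and 23.3, 23.9 and 23.7 in ventricles.

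**Figure D4:**
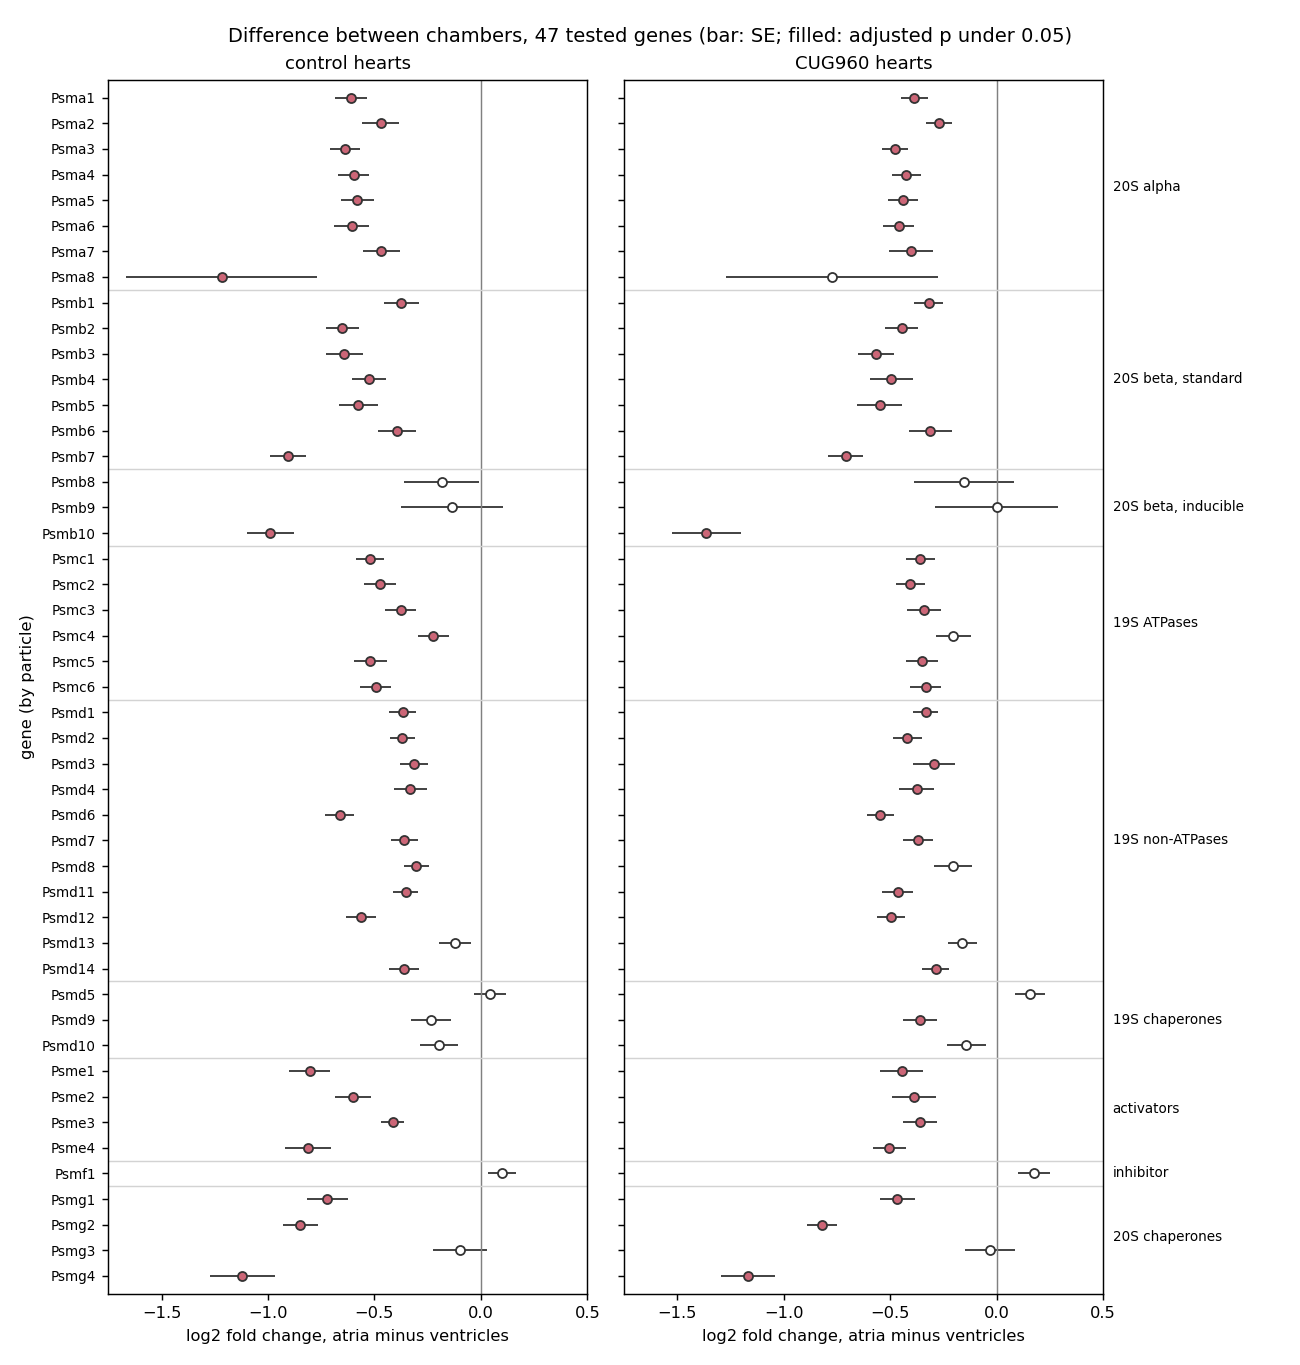
Log2 difference of atria over ventricles on the TMM scale (x axis, bar: SE) of the 47 tested members in control and in CUG960 hearts, by particle, with filled points at an adjusted P under 0.05. In control hearts 39 points are filled and in CUG960 hearts 37, all left of 0, while with total counts and no factors the medians of members lie at -0.02 and 0.01.

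In CUG960 hearts, 37 of 47 members were lower in atria and 0 were higher, where 54.2% of 17559 genes were called, 26.7% as higher and 27.5% as lower. The median was -0.39 for members and 0.01 for all genes, and 4 members passed a fold change of 1.5 (33.6% of all genes). With total counts and no factors the median of all genes moved to 0.40 and 5 members were called as higher and 4 as lower, where 67.4% of all genes were called. Relative to the median gene members stood at -0.40 under both scalings, a value that a change of scaling can hardly move. Psmb10 had the largest difference, with 22.5, 23.5 and 15.6 CPM in atria and 43.6, 58.2 and 55.4 in ventricles, a log2 difference of -1.37 ± 0.16 (adjusted P = 0.00011). Psmg4 followed with 3.15, 3.36 and 2.65 CPM in atria and 6.39, 7.46 and 6.55 in ventricles (-1.17 ± 0.13). For Psmg2 the values were 17.5, 15.9 and 16.8 CPM in atria and 29.2, 29.4 and 29.3 in ventricles (-0.82 ± 0.07). Atria and ventricles did not overlap for 39 members with atria lower (30.6% of all genes) and for 2, Psmd5 and Psmf1, with atria higher (32% of all genes). Psmb10, Psmg4 and Psmg2 did not overlap between the chambers in either genotype. Cell type markers moved with the chamber here too, with 10 of 12 leukocyte and 6 of 8 fibroblast markers higher in atria, and 5 of 7 cardiomyocyte and 5 of 5 erythroid markers lower. Erythroid markers (Hbb-bs the most abundant) summed to 440, 323 and 352 CPM in CUG960 atria and 2201, 1357 and 1289 in CUG960 ventricles, and the part of these markers in the difference was not tested. The interaction test above found no member whose difference between chambers was changed by genotype.

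The inducible subunits were compared with the standard ones they replace by the ratio of counts per kilobase within each library, which does not depend on library scaling. The level of a ratio does depend on the lengths used, here unions of exons. For Psmb8 the union is 3381 bases and the longest coding transcript 1628, and for Psmb7 3421 and 1160. Ratios are therefore compared between genotypes and not between pairs, and the genotype differences were the same with either length. Psmb8, the inducible chymotrypsin-like subunit, stood to Psmb5 at 0.0647, 0.0889 and 0.0867 in control atria and at 0.0800, 0.0847 and 0.0540 in CUG960 atria. In ventricles the ratios were 0.0474, 0.0653 and 0.0705 in controls and 0.0572, 0.0615 and 0.0480 in CUG960 mice. The genotypes overlapped in both chambers, and exact two-sided permutation tests gave P = 0.5 and 0.6. Psmb9 to Psmb6, the caspase-like pair, stood at 0.0293, 0.0530 and 0.0436 in control atria and 0.0420, 0.0480 and 0.0278 in CUG960 atria, and at 0.0268, 0.0407 and 0.0369 against 0.0336, 0.0389 and 0.0239 in ventricles. These overlapped too (exact permutation P = 0.7 and 0.6). The copy Gm3375 adds to the uncertainty of the Psmb5 denominator.

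Psmb10 to Psmb7 is the trypsin-like pair. Its ratio was 0.399, 0.491 and 0.442 in control atria and 0.370, 0.395 and 0.310 in CUG960 atria, where each CUG960 mouse was below each control. In ventricles it was 0.499, 0.468 and 0.442 in controls and 0.483, 0.605 and 0.616 in CUG960 mice, with 2 of 3 CUG960 mice above all controls. The mean log2 ratio of CUG960 mice differed from that of controls by -0.31 in atria and by 0.27 in ventricles. The exact permutation test (two-sided) cannot go below P = 0.1 with 3 mice a group, and gave P = 0.1 and 0.2, and 0.6 for both after Benjamini-Hochberg adjustment over the 6 ratios. The genotype change of Psmb10 itself was -0.07 ± 0.15 in atria and 0.30 ± 0.12 in ventricles on the log2 scale (adjusted P = 0.81 and 0.16), and its interaction was -0.37 ± 0.22 (adjusted P = 0.55).

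**Figure D5:**
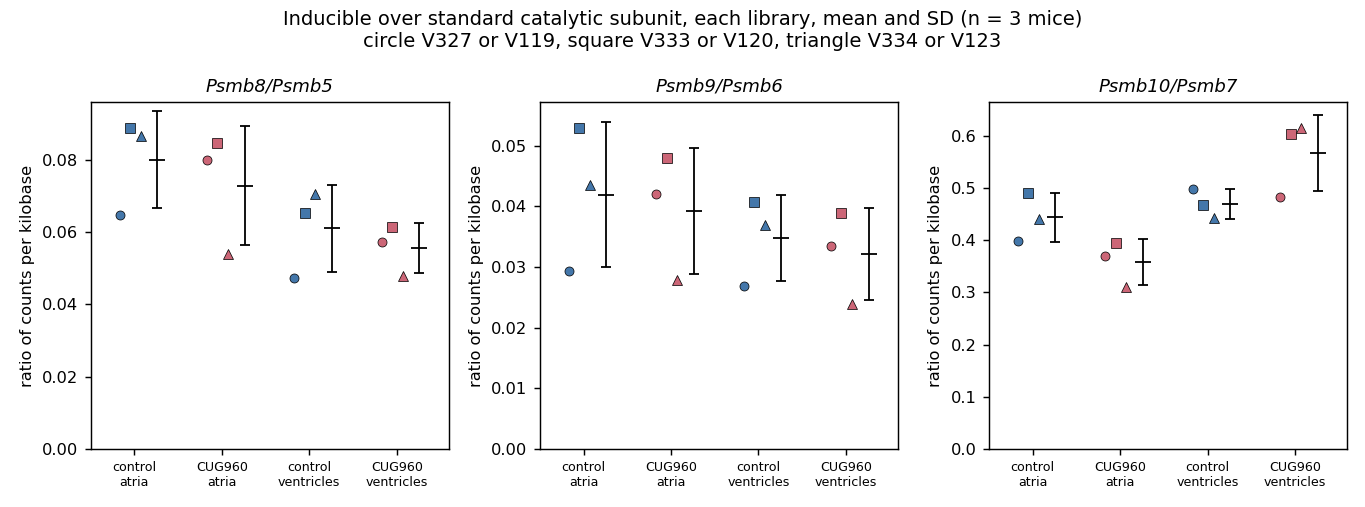
Ratio of the inducible to the standard catalytic subunit (counts per kilobase, y axis) in each library, with the mean and SD of 3 mice. For Psmb8 and Psmb9 the circle of the controls (V327) and the triangle of the CUG960 mice (V123) are the lowest of their group in both chambers, and for Psmb10 the CUG960 atria lie below the control atria.

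Psmb8 and Psmb9 varied more between mice than the other members with at least 360 counts in every library. The mean coefficient of variation within groups was 14.3% to 30% for the inducible genes, including Psmb10, and 6.03% to 9.55% for the standard beta genes. Psmb8 had 13.5, 17.3 and 18.3 CPM in control atria and 18.9, 19.9 and 10.8 in CUG960 atria, and 14.1, 22.4 and 19.2 in control ventricles and 17.6, 23.0 and 14.0 in CUG960 ventricles. Psmb9 had 6.32, 10.9 and 9.50 CPM in control atria, 10.6, 12.2 and 5.50 in CUG960 atria, 7.40, 12.8 and 9.11 in control ventricles and 9.47, 11.9 and 6.63 in CUG960 ventricles. In both genes V327 was the lowest control and V123 the lowest CUG960 mouse in each chamber. The 14 genes of interferon response and antigen presentation summed to 1068, 1148 and 1290 CPM in control atria, 1206, 1283 and 806 in CUG960 atria, 940, 1057 and 1038 in control ventricles and 945, 1076 and 771 in CUG960 ventricles, with H2-D1 the most abundant. Their sum had the same lowest mouse in each group, and its part in the levels of Psmb8 and Psmb9 was not tested. None of these 14 genes was called for genotype by edgeR in atria or ventricles (14.6% and 9.94% of all genes). In each chamber 1 had an unadjusted P under 0.05 (30.2% and 25.7% of all genes).

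Of the wider pathway, 47 genes outside the member rule were listed: further subunits and assembly factors, regulators of subunit transcription, ubiquitin shuttles and the unfoldase Vcp, the deubiquitinases of the proteasome, ubiquitin genes with their E1 enzymes, and ligases of muscle and of protein quality control. In atria 4 of these rose and 2 fell (against 7.95% and 6.62% of all genes), and in ventricles 3 rose and 0 fell (against 5.73% and 4.2%). With DESeq2, which kept genes of low counts, 10 were called in atria (12.2% of 28064 genes) and 5 in ventricles (9.15% of 27223). The atrial count was 2 to 10 when 1 mouse was left out (6.86% to 14.3% of all genes). Only Uchl5 and Ube4b passed a fold change of 1.5, in both chambers. In atria 5.49% of all genes did so, and the share in ventricles is not given here. Uchl5 (UCH37), a deubiquitinase that docks on the 19S particle, had 22.8, 20.6 and 20.8 CPM in control atria and 35.6, 31.4 and 35.8 in CUG960 atria, and 25.2, 27.6 and 25.8 in control ventricles and 47.5, 39.7 and 48.0 in CUG960 ventricles. The genotypes were far apart in both chambers, with a log2 fold change of 0.68 ± 0.08 (adjusted P = 0.0013) for atria and of 0.79 ± 0.09 (adjusted P = 0.0014) for ventricles, rises of 1.60-fold and 1.72-fold.

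Ube4b, a ligase that extends ubiquitin chains, had 44.4, 40.4 and 41.0 CPM in control atria and 64.4, 61.6 and 63.9 in CUG960 atria, and 40.3, 33.7 and 43.2 in control ventricles and 69.0, 76.0 and 67.3 in CUG960 ventricles. Again no CUG960 value overlapped a control, and the log2 fold changes were 0.59 ± 0.06 and 0.86 ± 0.10 (adjusted P = 0.00081 and 0.0012). Uchl5 and Ube4b thus changed by more than any proteasome member did. By contrast Adrm1, the 19S ubiquitin receptor Rpn13 on which Uchl5 docks, had a log2 fold change of 0.09 ± 0.07 for atria and of 0.10 ± 0.11 for ventricles (adjusted P = 0.47 and 0.64). Other genes called were Zfand2a, a zinc finger protein that binds the proteasome (0.29 ± 0.05 in atria), the sarcomere ligase Trim55 (0.28 ± 0.06 in atria and 0.31 ± 0.07 in ventricles) and the ligase Traf6 (-0.30 ± 0.08 in atria). In atria 1 of the 6 ubiquitin and E1 genes, not named here, also fell by edgeR (adjusted P = 0.031).

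The regulators of subunit transcription were not called for genotype in either chamber, 0 of 6 (14.6% of all genes in atria and 9.94% in ventricles). Nfe2l1 had 495.5, 434.8 and 460.2 CPM in control atria and 425.9, 478.1 and 457.4 in CUG960 atria, with overlap, with a log2 fold change of -0.03 ± 0.07 for atria and of 0.12 ± 0.09 for ventricles (adjusted P = 0.81 and 0.45). Nfe2l2 had log2 fold changes of 0.16 ± 0.07 and -0.04 ± 0.07 (adjusted P = 0.18 and 0.75). Pomp, the chaperone that completes the 20S core, had -0.06 ± 0.08 and -0.10 ± 0.09 (adjusted P = 0.67 and 0.52). The muscle ligase Trim63 (MuRF1) had 119.5, 133.9 and 146.0 CPM in control atria and 187.5, 171.7 and 146.4 in CUG960 atria, which did not overlap but did not pass (0.34 ± 0.11, adjusted P = 0.070), and Fbxo32 (atrogin-1) had 0.20 ± 0.09 in atria (adjusted P = 0.19). In control hearts 30 of the 47 pathway genes were lower in atria and 5 higher, with a median of -0.29 (all genes: 27.5% lower and 28.3% higher). In CUG960 hearts 26 were lower and 4 higher with a median of -0.25 (all genes: 27.5% lower and 26.7% higher), both on the TMM scale. Nfe2l1 was among the lower ones, with a log2 difference of -0.51 ± 0.08 in control hearts (adjusted P = 0.0011). No gene of the pathway list was called for the interaction (1.38% of all genes), and 0 had an unadjusted P under 0.05 (12.3% of all genes).

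Markers of other cell types moved with genotype beside the members. Of all genes, 7.95% rose and 6.62% fell in atria, and 5.73% rose and 4.2% fell in ventricles. Of 8 endothelial markers, 4 fell in atria and 3 in ventricles, with Pecam1 (the most abundant) at -0.71 ± 0.10 and Tek at -0.62 ± 0.11 in atria. They summed to 1005, 1075 and 856 CPM in control atria and 690, 816 and 745 in CUG960 atria, and to 1023, 840 and 1000 CPM in control ventricles and 724, 693 and 754 in CUG960 ventricles. Of 8 fibroblast markers, 3 fell in atria and 0 in ventricles, with Postn at -0.73 ± 0.10 in atria, and CUG960 atria summed to 2127, 2214 and 1888 CPM, below each control atrium. Of 7 cardiomyocyte markers, 2 rose (Myh6 and Pln) and 1 fell (Ryr2) in atria, 5 of the 7 log2 fold changes were below 0 and their median was -0.10. The sum of these markers, of which Myh6 is the most abundant, was 44797, 44241 and 43288 CPM in CUG960 atria, above each control atrium. No leukocyte marker passed in either chamber, where 14.6% of all genes passed in atria and 9.94% in ventricles. The part of these cell type markers in the change of the members was not tested.

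The other marker lists gave these counts for genotype, to be read beside the shares of all genes given above. Of smooth muscle markers, 1 of 4 rose in atria (Tagln) and 2 fell in ventricles (Myh11 and Tagln), of adipocyte markers 0 of 4 passed in atria and 2 fell in ventricles, and of neuron and Schwann cell markers 0 of 5 passed in atria and 1 of 4 fell in ventricles. Of 5 erythroid markers, none passed in atria by edgeR, where all 5 had an unadjusted P under 0.05 (30.2% of all genes). Their sum in atria was 514, 323 and 2766 CPM in controls and 440, 323 and 352 in CUG960 mice, so that V334 stood apart. None of the 5 passed in ventricles by edgeR, where 2 had an unadjusted P under 0.05 (25.7% of all genes). Of 7 cardiomyocyte markers, 1 fell in ventricles (Ryr2). Of 6 markers of atrial cardiomyocytes, Nppa fell in atria (-0.42 ± 0.07) and rose in ventricles (adjusted P = 0.031), and Bmp10 fell in ventricles (-4.06 ± 0.50). Of the markers of ventricular cardiomyocytes, Hey2 fell in atria (-0.67 ± 0.19, 4 tested) and in ventricles (-0.52 ± 0.14, 5 tested), and Irx4 rose in ventricles (0.36 ± 0.09).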

How the data were processed

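RNA-Seq libraries from poly(A) RNA of atria and ventricles of 6 mice were analyzed. The authors deposited 1 table of expected counts per gene from RSEM 1.3.1 on GRCm38/mm10 (submitters' processing notes). Expected counts were rounded to whole numbers. No batch is given in the labels.

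Genes that passed filterByExpr were fitted with edgeR 4.0.16 (R 4.3.3) by the quasi-likelihood test with TMM factors, on the 6 libraries of each comparison and on all 12 for the interaction. P values were adjusted by Benjamini-Hochberg over all genes tested, and a gene was called at an adjusted P under 0.05. The comparisons between genotypes and between chambers share libraries. DESeq2 1.42.0 was an alternative, and the edgeR steps were tested on simulated data. Ratios of subunits were compared by exact permutation tests (scipy 1.17.1). Copies were sought with blastn 2.17.0 (at least 95% identity, and 80% of the coding sequence or of the copy). Other alternatives were other scaling and filters, a fold limit of 1.5, a block for the mouse and fits with 1 mouse left out.

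Members described by library were those called for genotype, the 5 with the smallest interaction P, the 5 with the largest chamber difference in controls, the catalytic pairs, activators, inhibitor and tissue-restricted genes. Members and lists were chosen with earlier results of these data known. Atria and ventricles of the same mouse are paired by the labels, and residuals of same-mouse libraries correlated at 0.0456 to 0.324 (6 pairs), against -0.391 to 0.157 between mice. 1 gene of the pathway list is counted but not reported here by name.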

Additional observations from a re-analysis of the deposited data

Results flagged for a closer look

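3 marker genes changed differently with genotype in atria and in ventricles by edgeR's interaction test, and no proteasome gene did. Bmp10, an atrial growth factor, had a log2 change of -4.06 in ventricles, and its change in atria exceeded this by 4.10. Nppa, which encodes atrial natriuretic peptide, had a difference of -1.72. Tagln, a smooth muscle gene, had a difference of 1.85.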

How the results depend on the processing

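The direction of the members called held in both genotype comparisons under every alternative that called any, and did not hold between chambers with total counts and no factors. In atria (5 members called) the count was 9 with DESeq2 (12.2% of 28064 genes, low counts kept) and 9 with total counts and no factors (14.9%). It was 0 with a fold change of at least 1.5 (5.49% of all genes), and 0 to 13 when 1 mouse was left out. In ventricles (0 called) it was 1 with DESeq2 (9.15% of 27223 genes) and 1 with no filter on low counts (8.04% of 27223). It was 1 with at least 10 counts in every library (10.9% of all genes), 6 with total counts (13.1%), 2 with all 12 libraries in 1 fit (13.5%), and 0 to 2 when 1 mouse was left out (4.53% to 7.76%). Between chambers the counts of 39 in control and 37 in CUG960 hearts became 18 (8 higher, 10 lower) and 9 (5 higher, 4 lower) with total counts, and 16 and 4 with a fold change of at least 1.5. In CUG960 hearts 2 members were called as higher with upper quartile factors, and 1 each with all 12 libraries in 1 fit and with a minimum of 10 counts per library, beside 37 lower. Total counts with no factors and the leaving out of mitochondrial genes were chosen after seeing the data, and the latter changed no count by over 1.5 times. The pathway list had 6 genes called in atria, 10 with DESeq2, 2 with the fold limit (5.49% of all genes) and 2 to 10 when 1 mouse was left out. It had 3 in ventricles and 5 with DESeq2, and 35 and 30 between chambers, which became 8 and 7 with the fold limit (34.9% and 33.6% of all genes).

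With the mouse as a replicate block, 39 members were called in control hearts (55.8% of all genes), 38 in CUG960 hearts (55.4%) and 0 for the interaction (1.82%). Psma8, at 23 to 102 counts, lost its call between chambers with the block (adjusted P = 0.055 with edgeR), with upper quartile factors (0.0505), with total counts (0.17), with all 12 libraries in 1 fit (0.067), and without V327 (0.31) or V334 (0.085). Its log2 difference of -1.22 was -1.14 with the block, -1.19 with upper quartile factors, -1.21 with all 12 libraries and -1.33 without V334, and moved to -0.77 with total counts and to -0.70 without V327.

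The causes of these shifts were not tested. With 3 mice a group, the ratios of subunits could not reach P under 0.1. Without V123 the log2 difference in atria became 0.05 for Psmb8 to Psmb5 and 0.14 for Psmb9 to Psmb6, from -0.15 and -0.09, and Psmb9 to Psmb6 was also above 0 without V333 (0.10). In ventricles Psmb9 to Psmb6 moved from -0.12 to 0.08 without V123 and to 0.0016 without V333.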
